A study of Mus musculus with 6 samples.

Results

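Endoplasmic reticulum-associated degradation (ERAD) removes misfolded proteins from the endoplasmic reticulum (ER) and hands them to the proteasome. The 10 ERAD genes described here are Derl3 and 9 partners, namely Derl1, Derl2, Syvn1, Sel1l, Herpud1, Edem1, Edem2, Edem3 and Os9, out of 53465 genes in the deposited tables. They were chosen by function around Derl3, which had the smallest p of the 15951 genes tested between the 2 groups of the study. Because that contrast chose them, their differences between the groups are given as a description, with no p-value. All 10 passed the filter on low counts, and none passed it through one group alone.

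The samples were 6 cultures of Royan B20, a single mouse embryonic stem cell line, sequenced as poly(A) mRNA. In 3 cultures, called BMP-inhibited here after their labels, noggin (250 nM), a secreted BMP antagonist, and dorsomorphin (5 µM), a kinase inhibitor that blocks BMP type I receptors and also AMPK, were added to R2i medium. The other 3 cultures were R2i controls with neither. Both groups grew on gelatin with LIF and with the R2i inhibitors, which are 1 µM of the MEK inhibitor that the labels spell PD0329501 and 10 µM of the TGF-beta receptor inhibitor SB431542. The inhibitors were added together, so their effects cannot be told apart, and the time of exposure is not given in the sources used here.

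In ERAD of glycoproteins, mannosidase-like EDEM proteins trim the sugar chains of a misfolded protein, and the lectin OS9 delivers it to SEL1L, the adaptor of the ubiquitin ligase SYVN1 (HRD1). Derlins are membrane proteins without catalytic activity that help the client through the membrane, where HERPUD1 helps to assemble the complex and the ATPase VCP pulls the client into the cytosol. Much of this machinery is induced by the unfolded protein response (UPR), through the transcription factors XBP1 and ATF6. The question addressed by the design is how gene expression differs once BMP inhibitors are added to R2i cultures.

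Libraries held 31474666 to 35322844 gene counts. Called means an adjusted p below 0.05 in edgeR's quasi-likelihood test over all genes, and levels are CPM, counts scaled to library size with TMM factors. Pairs of BMP-inhibited libraries differed by a chi-square per gene of 8.26 to 10.75, and pairs of control libraries by 2.32 to 3.04. On the second principal component BMP-inhibited replicate 2 was at -27.2, and replicates 1 and 3 at 20.4 and 4.43. Of 10 embryonic stem cell markers, 9 passed the count filter, 6 of them lower and 1 higher, and their summed level was 4185 to 4376 CPM in BMP-inhibited and 5055 to 5192 CPM in control libraries. Id1, Id2 and Id3, which BMP signalling is known to induce, were higher and not lower in BMP-inhibited cells, by 2.11, 0.94 and 0.21 on the log2 scale, but Id3 lost its call without BMP-inhibited replicate 2 (0.10) or control replicate 1, 2 or 3 (0.19, 0.20 and 0.22). Trophectoderm markers were higher as well for 6 of the 8 tested, with a summed level of 342 to 433 CPM in BMP-inhibited and 200.1 to 203 CPM in control libraries and the main part of the difference in Krt8 (89.96 ± 15.7 and 18.1 ± 0.807 CPM) and Krt18 (78.3 ± 11.8 and 12.03 ± 0.799 CPM; SD, n = 3 each). Gata3 was at 15.3 ± 2.24 CPM in BMP-inhibited cells and 2.31 ± 0.233 CPM in controls, and Hand1 at 6.07 ± 1.22 and 0.0959 ± 0.0310 CPM. Cdx2 was at 0.454 ± 0.212 and 0.0192 ± 0.0167 CPM and, like Elf5, did not pass the count filter. Tfap2c and Eomes were tested and not called. Tfap2c had 137 ± 9.06 CPM in BMP-inhibited cells and 128 ± 1.20 CPM in controls, and Eomes 9.20 ± 0.302 and 8.95 ± 0.481 CPM. Of 10 fibroblast markers 5 passed the count filter and 4 of these were higher. The summed levels were 112 to 120 CPM against 92.9 to 95.9 CPM, nearly all of it Vim. The other 3 were Col1a1 at 3.46 ± 0.167 CPM in BMP-inhibited cells and 1.28 ± 0.267 CPM in controls, Pdgfra at 1.90 ± 0.124 and 0.871 ± 0.0868 CPM, and Postn at 0.497 ± 0.219 and 0.0201 ± 0.0348 CPM. Col3a1 had 8, 9 and 7 counts in BMP-inhibited libraries and 0 in each control, and Dcn and Lum had at most 1 count in any library. Of 10 endoderm markers 6 passed the count filter, 3 of them higher and 2 lower. Their summed level was 20.5 to 21.3 CPM in BMP-inhibited and 28.6 to 31.5 CPM in control libraries. The shares of all genes tested, to be set beside these marker counts, were 31.7% lower and 32.5% higher. The part of these markers in the ERAD results was not tested, and in bulk RNA fewer cells expressing a gene and less RNA per cell cannot be told apart.

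Of the 10 ERAD genes, 7 were lower in BMP-inhibited cells, 1 was higher and 2 did not pass. The median log2 fold change of the 10 was -0.64, against -0.0031 for all genes tested. Over all genes 64.2% were called, with 31.7% lower and 32.5% higher, and nothing is read from the members' count because the same contrast chose them. The 3 libraries of each group did not overlap for 8 of the 10, with BMP-inhibited libraries below the controls for 7 genes (34.1% of all genes) and above them for 1 (34.5% of all genes).

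**Figure D1:**
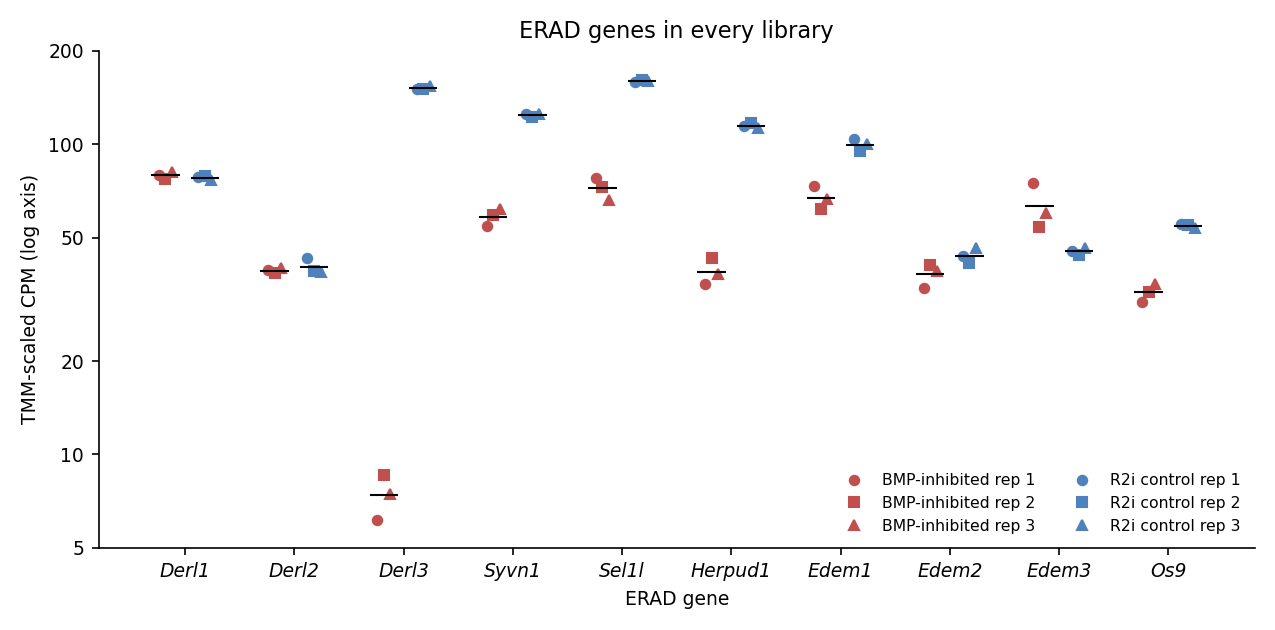
TMM-scaled CPM (log axis) of each ERAD gene in every library, with BMP-inhibited libraries in red left of R2i control libraries in blue; marker shapes stand for replicates and black lines for group means. Derl3 lies between 6.14 and 8.60 CPM in BMP-inhibited libraries and between 150.3 and 153.5 CPM in controls, while Derl1 and Derl2 overlap between the groups.

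Promoter sequence was not used to choose the genes. They were chosen by function, however, and much of ERAD is known to be induced by the UPR. Matches to motifs of that response are thus not independent of the choice. RefSeq windows on GRCm38.p6, from 250 bases before to 50 after the start, matched 9 of the 10 genes; Derl1 had no entry. Both strands were searched for 4 motifs. These were the ER stress element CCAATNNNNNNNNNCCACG, known as a site for ATF6 and XBP1 with NF-Y, the second ER stress element ATTGGNCCACG, the UPR element TGACGTGG and the C/EBP-ATF composite core TGATGNAA, known as a site for ATF4. The shares of all 32851 windows that held them were 0.119%, 0.0365%, 0.676% and 3.97%.

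Derl3, Syvn1 and Herpud1 held matches, and their stretches are shown because they carry them, 5′ to 3′ on the strand of the gene with the matched bases in capitals. In Derl3 (chr10:75893222-75893280) the ER stress element reads on the opposite strand, 138 to 156 bases before the start. In Syvn1 (chr19:6046512-6046570) it reads on the gene's strand, 26 to 44 bases before the start. Herpud1 (chr8:94386297-94386407) held the composite core on the opposite strand, 105 to 112 bases before the start, and the second ER stress element on its own strand, 42 to 52 bases before it.
Derl3: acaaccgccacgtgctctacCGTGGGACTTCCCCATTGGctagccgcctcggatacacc
Syvn1: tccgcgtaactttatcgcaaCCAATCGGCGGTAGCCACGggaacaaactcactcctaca
Herpud1: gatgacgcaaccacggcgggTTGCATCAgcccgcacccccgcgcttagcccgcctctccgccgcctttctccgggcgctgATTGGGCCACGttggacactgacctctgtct
No match of these letters lay in the windows of Derl2, Sel1l, Edem1, Edem2, Edem3 and Os9, and the UPR element was in none of the 9. A match describes the letters in the window and does not show that a factor binds there.

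The derlins did not move together. Derl3 (ENSMUSG00000009092, GRCm38 chromosome 10, 75893413 to 75895941, plus strand), the derlin best known from secretory tissues, had 6.14, 8.60 and 7.46 CPM in BMP-inhibited replicates 1 to 3, against 150.3, 151.0 and 153.5 CPM in the controls. The raw counts behind these levels were 190, 268 and 245 in BMP-inhibited libraries and 5138, 5475 and 5092 in control libraries. Every BMP-inhibited library thus lay far below every control, with a gap between the groups much wider than the spread within either. Such a gap follows from the choice of Derl3 by its p and is description only. The log2 fold change was -4.36 (SE 0.08), which left 4.88% of the control level, and 0.0627% of tested genes had a lower fold change.

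Derl1 (chromosome 15, 57869502 to 57892448), a widely expressed derlin, had 79.6, 77.5 and 81.1 CPM in BMP-inhibited cells and 78.2, 78.7 and 76.8 CPM in controls. Its log2 fold change was 0.03 (SE 0.05) and the groups overlapped. Derl2 (chromosome 11, 71007164 to 71019841) had 39.2, 38.4 and 39.9 CPM in BMP-inhibited and 42.9, 38.95 and 38.6 CPM in control libraries, a log2 fold change of -0.04 (SE 0.06). These libraries overlapped too. Neither gene was called under any of the 15 alternative settings, and each changed sign in 1 of them.

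Comparing the derlins with each other needs levels per length, given as RPKM over the summed exons of a gene. Derl3 made up 9.66%, 13.3% and 11.3% of the summed derlin RPKM in BMP-inhibited libraries, against 72.3%, 72.7% and 73.4% in controls. The share of Derl1 was 73.6% ± 1.57 in BMP-inhibited cells and 22.4% ± 0.369 in controls (SD, n = 3 each). Derl2 made up 15.3%, 14.7% and 14.99% in BMP-inhibited libraries and 5.11%, 4.64% and 4.57% in controls. The predominant derlin transcript was thus Derl1 in all 3 BMP-inhibited libraries and Derl3 in all 3 control libraries. Together the 3 derlins summed to 32.4 ± 0.594 RPKM in BMP-inhibited cells and 104 ± 0.366 RPKM in controls.

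**Figure D2:**
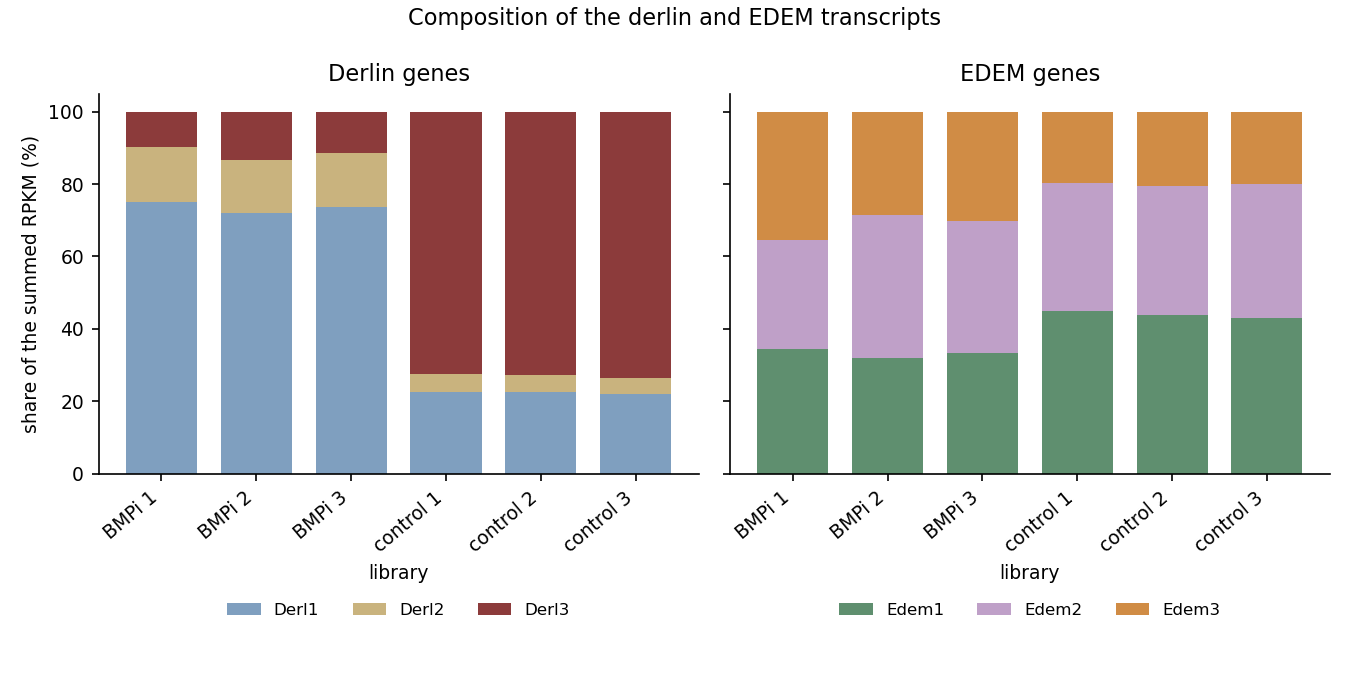
Share (%) of each gene in the summed RPKM of the 3 derlins (left) and of the 3 EDEM genes (right), 1 bar per library, BMP-inhibited (BMPi) libraries left of controls. Derl3 takes 9.66% to 13.3% of the derlin bars in BMP-inhibited libraries and 72.3% to 73.4% in controls.

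The ubiquitin ligase, its adaptor and Herpud1 were lower in every BMP-inhibited library than in any control. Syvn1 (chromosome 19, 6046576 to 6053712), which encodes the ligase HRD1, had 54.3, 59.1 and 61.8 CPM in BMP-inhibited and 124.9, 122.3 and 125.0 CPM in control libraries. The highest BMP-inhibited library was below the lowest control, and the log2 fold change was -1.09 (SE 0.05). Sel1l (chromosome 12, 91806043 to 91849157), its adaptor and stabiliser, had 77.8, 72.8 and 66.3 CPM in BMP-inhibited cells and 159.0, 160.5 and 159.5 CPM in controls, a log2 fold change of -1.14 (SE 0.05). The RPKM ratio of Sel1l to Syvn1 was 0.708 ± 0.102 in BMP-inhibited cells and 0.731 ± 0.0123 in controls (SD, n = 3 each), with overlapping libraries, so the balance between them shifted by less than the spread among BMP-inhibited cultures.

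Herpud1 (chromosome 8, 94386438 to 94395377), a stress-induced membrane protein with a ubiquitin-like domain, fell further, to 35.3, 43.1 and 38.2 CPM in BMP-inhibited libraries against 114.3, 116.7 and 112.8 CPM in controls. Its log2 fold change of -1.56 (SE 0.06) was the second lowest of the 10. Relative to Syvn1, its RPKM ratio was 1.39 ± 0.119 in BMP-inhibited cells and 1.92 ± 0.0556 in controls, and these libraries did not overlap. Syvn1 shares 91 exon bases with Mrpl49 on the opposite strand and Derl2 shares 231 with Mis12, so reads in those stretches are uncertain because the strand setting of the counting is not given. The other 8 ERAD genes overlap no annotated exon of another gene.

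Mannose-trimming genes of the EDEM family went in different directions. Edem1 (chromosome 6, 108828641 to 108859356), the founding member of this family in ERAD, had 73.2, 61.8 and 66.6 CPM in BMP-inhibited and 103.9, 94.8 and 99.96 CPM in control libraries, a log2 fold change of -0.57 (SE 0.06). Edem2 (chromosome 2, 155701677 to 155729475), known in human cells for the first trimming step, had 34.4, 40.9 and 39.1 CPM in BMP-inhibited cells and 43.7, 41.3 and 46.2 CPM in controls. The groups were separate by a narrow margin for Edem2, and its log2 fold change of -0.20 (SE 0.07) was no longer called without BMP-inhibited replicate 1 (-0.13) or without control replicate 1 (-0.20) or 3 (-0.16).

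Edem3 (chromosome 1, 151755371 to 151822051), a further mannosidase of the family, was the one gene of the 10 that rose. It had 74.8, 54.2 and 59.9 CPM in BMP-inhibited cells and 45.4, 43.9 and 46.2 CPM in controls, a log2 fold change of 0.48 (SE 0.09). All BMP-inhibited libraries were above all controls, and replicate 1 was the highest. The share of Edem3 in the summed EDEM RPKM was 31.4% ± 3.69 in BMP-inhibited cells and 20.2% ± 0.356 in controls (SD, n = 3 each). That of Edem1 was 33.3% ± 1.17 and 43.9% ± 0.989, and the EDEM sum was 31.3 ± 1.57 RPKM in BMP-inhibited cells and 35.1 ± 1.43 RPKM in controls.

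Os9 (chromosome 10, 127095650 to 127121131), the lectin that reads trimmed sugar chains, had 31.1, 33.4 and 35.4 CPM in BMP-inhibited and 55.4, 54.8 and 53.9 CPM in control libraries. The libraries did not overlap, and the log2 fold change was -0.72 (SE 0.06). Its RPKM ratio to Sel1l, the protein it docks to, was 1.51 ± 0.218 in BMP-inhibited cells and 1.11 ± 0.0174 in controls.

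**Figure D3:**
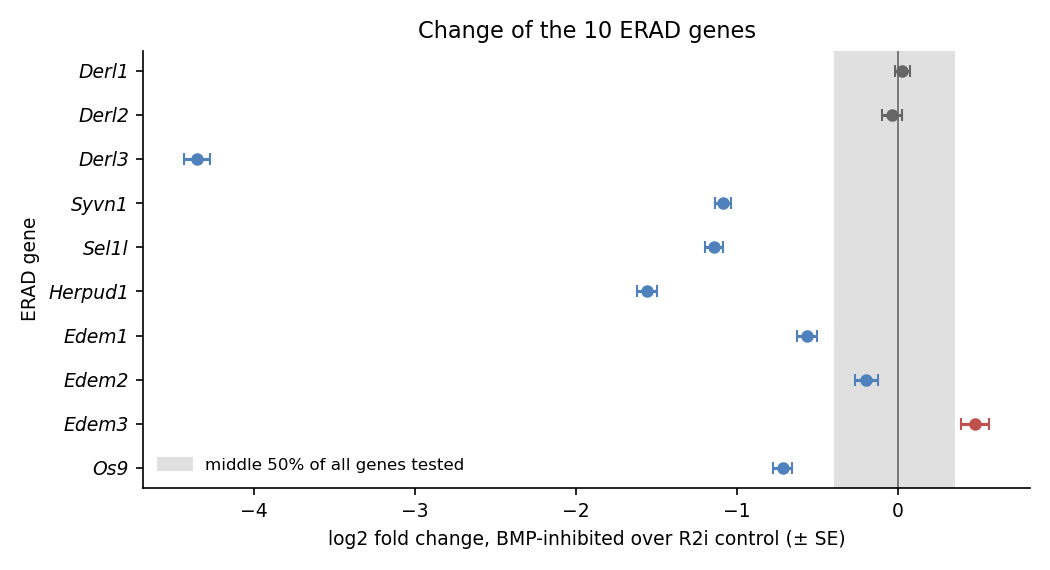
Log2 fold change (BMP-inhibited over R2i control, horizontal axis) of each ERAD gene with its standard error, in blue where lower, red where higher and grey where not called; the grey band spans the middle 50% of all genes tested, -0.40 to 0.35. Derl3 lies far to the left at -4.36, and Edem3 at 0.48 is the one gene to the right of the band.

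Ordered by RPKM, Derl3 was the highest of the 10 genes in control cells and the lowest in BMP-inhibited cells. In controls it had 76.1 ± 0.847 RPKM and was followed by Herpud1 at 49.1 ± 0.841 and Syvn1 at 25.5 ± 0.309 RPKM (SD, n = 3 each). Next came Derl1, Os9, Sel1l, Edem1, Edem2, Edem3 and Derl2, the last at 4.99 ± 0.297 RPKM. Neighbours in the control order did not overlap between libraries at any step. The order below Syvn1 depended on the length used, and with the longest transcript Edem3, not Derl2, was last.

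In BMP-inhibited cells Derl1 led at 23.9 ± 0.545 RPKM, followed by Herpud1 at 16.7 ± 1.68 RPKM, and these stood clear of each other and of the rest. Os9, Syvn1, Edem2, Edem1, Edem3 and Sel1l followed within 12.7 to 8.45 RPKM, and each overlapped its neighbour in that order. Derl2 at 4.86 ± 0.0952 RPKM and Derl3 at 3.71 ± 0.620 RPKM came last, each separate from the gene above it. Among all tested genes, the RPKM of Derl3 was at percentile 46.7 in BMP-inhibited cells and 96.2 in controls. The 10 genes summed to 113 ± 1.20 RPKM in BMP-inhibited cells and 254 ± 1.01 RPKM in controls, and the 9 genes other than Derl3 to 109.8 ± 0.767 and 178 ± 1.19 RPKM.

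BMP-inhibited cultures varied more than controls for 9 of the 10 genes. The coefficient of variation ran from 1.96% to 16.9% in BMP-inhibited libraries and from 0.477% to 5.96% in control libraries, with Derl3 at 16.7% and 1.11%. Among the 8 called ERAD genes, BMP-inhibited replicate 1 lay farthest from the controls for 6, replicate 2 for 1 (Edem1) and replicate 3 for 1 (Sel1l). Over all 10236 called genes, replicate 1 was the farthest for 39.9%, replicate 2 for 24.2% and replicate 3 for 35.9%. Without BMP-inhibited replicate 2 or 3, 7 ERAD genes were called lower and 1 higher, and without replicate 1, 6 lower and 1 higher.

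The ER stress element was also looked up across all tested genes, a description added after the data were seen. Of 11476 tested genes with a window, 22 held it, and 17 of these were lower and 2 higher in BMP-inhibited cells, against 33.0% lower and 34.1% higher among all genes with a window. Without BMP-inhibited replicate 2 or any one control library, 1 was higher instead of 2. The median log2 fold change of the 22 was -0.67, against 0.0041 for all genes with a window. The 22 include Derl3 and Syvn1, and 7 genes of the pathway lists. They were counted by gene with both strands searched, so a stretch shared by neighbouring genes would count for each. Among the other 13, 8 were lower, 2 higher and 3 not called, with a median of -0.39. These 13 include Alg12, a mannosyltransferase that builds the sugar chain, which had 15.8, 17.8 and 14.3 CPM in BMP-inhibited libraries and 26.7, 29.5 and 27.6 CPM in controls. Xlr3a, Xlr3b and Xlr3c, also among the 13, are near-identical copies whose counts are uncertain. Of 9 tested genes with the second ER stress element, 6 were lower and 2 higher (median -0.50). They include Herpud1 and 1 gene of the pathway lists. With matches before the start only, 4 of 7 were lower and 2 higher (median -0.21). For the UPR element 38.3% of 120 were lower and 27.5% higher (median -0.04), and for the composite core 43.0% of 321 were lower and 33.3% higher (median -0.07).

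**Figure D4:**
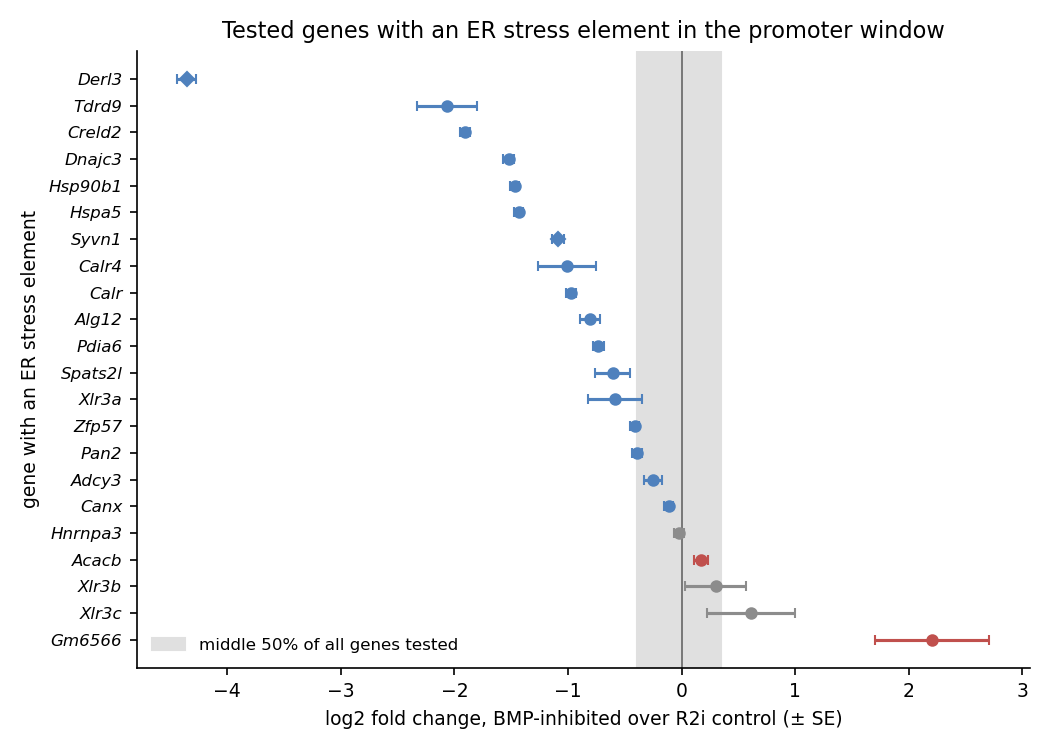
Log2 fold change (BMP-inhibited over R2i control, horizontal axis) with its standard error for the 22 tested genes whose promoter window holds the ER stress element; diamonds are Derl3 and Syvn1, blue is lower, red higher and grey not called, and the grey band spans the middle 50% of all genes tested. Of the 22 genes 17 lie lower, from Derl3 at -4.36 to Canx at -0.11.

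Other genes of the pathway were taken from 6 lists with 101 genes, of which 99 were tested. Of these, 52 were lower and 24 higher, with a median log2 fold change of -0.14. The shares of all genes tested, to be set beside the count of each list, were 31.7% lower and 32.5% higher. Nothing is read from these counts, because the lists were chosen with earlier results known. ER chaperones that hand clients to ERAD were the one list without a riser, and all 16 were lower (median -0.64). Creld2, an ER-stress induced protein, had 70.3 ± 1.20 CPM in BMP-inhibited cells and 264 ± 3.18 CPM in controls (log2 fold change -1.91, SE 0.04, edgeR adjusted p = 5.5e-14). Sdf2l1, Pdia4 and Dnajc3, chaperones or their partners, had log2 fold changes of -1.78, -1.59 and -1.52.

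Among ER ubiquitin ligases and conjugating enzymes other than Syvn1, 7 of 16 were lower and 4 higher, none by 2-fold (median -0.04). Without control replicate 3 the count of lower ones was 4. Rnf145, a ligase of sterol regulation, rose to 81.2 ± 1.78 CPM in BMP-inhibited cells, against 47.0 ± 0.677 CPM in controls. Rnf139 and the conjugating enzyme gene Ube2g1 had log2 fold changes of -0.38 and 0.31.

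The VCP extraction machinery was split between 7 lower and 8 higher of 19 (median -0.02). Vcp itself, the ATPase that pulls clients out of the membrane, was at 725 ± 24.9 CPM in BMP-inhibited cells and 517 ± 13.2 CPM in controls, higher by 0.49 on the log2 scale (SE 0.04, edgeR adjusted p = 4.7e-08). The VCP cofactor gene Ubxn8 and the deubiquitinase genes Usp25 and Usp13 were higher by 0.76, 0.60 and 0.58. Vcp, which acts after Syvn1 in the pathway, was thus higher in the cultures in which Syvn1 was lower.

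In the list of mannose trimming, lectins and the glycan checkpoint, 7 of 12 were lower and 3 higher (median -0.14). Calr, the lectin chaperone calreticulin, had 526 ± 34.4 CPM in BMP-inhibited cells and 1031 ± 11.3 CPM in controls, and Man1c1 had a log2 fold change of -0.66. Uggt2, a glucosyltransferase that senses folding, and the mannosidase gene Man1a rose by 1.17 and 0.88 from low levels. Membrane adaptors and scaffolds had 8 lower and 3 higher of 19 (median -0.11), and 5 lower without control replicate 1 or 3. Rhbdd1, a rhomboid protease and distant relative of the derlins, was at 13.2 ± 1.95 CPM in BMP-inhibited cells and 28.1 ± 0.455 CPM in controls (log2 fold change -1.09, SE 0.09). Ubqln2 and Selenos had log2 fold changes of -0.62 and -0.47, and Get4 rose by 0.41.

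UPR sensors and transcription factors had 7 lower and 6 higher of 17 (median -0.13). Xbp1, which encodes the factor known to induce ERAD genes, had 51.1 ± 2.42 CPM in BMP-inhibited cells and 78.4 ± 1.36 CPM in controls, a log2 fold change of -0.62 (SE 0.05, edgeR adjusted p = 6.0e-08). Gene counts do not show its splicing. Ddit3 (CHOP), Creb3l2 and Atf6b had log2 fold changes of -1.97, -0.93 and -0.51. Atf6 was at 0.01 (SE 0.06) and did not pass. The 6 higher genes included Mbtps1 and the sensor genes Ern1 and Eif2ak3, at 0.48, 0.48 and 0.26. Atf4 was lower, at -0.38. Of the NF-Y genes, Nfya was lower at -0.44, Nfyc higher at 0.44, and Nfyb, at 0.02, was not called. Vcp, Uggt2, Man1a, Rnf139, Ddit3 and Eif2ak3 overlap an antisense gene. Rnf139 and Ddit3 overlap another gene on the same strand and Pdia4 a microRNA gene, so the counts of all these genes are uncertain.

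**Figure D5:**
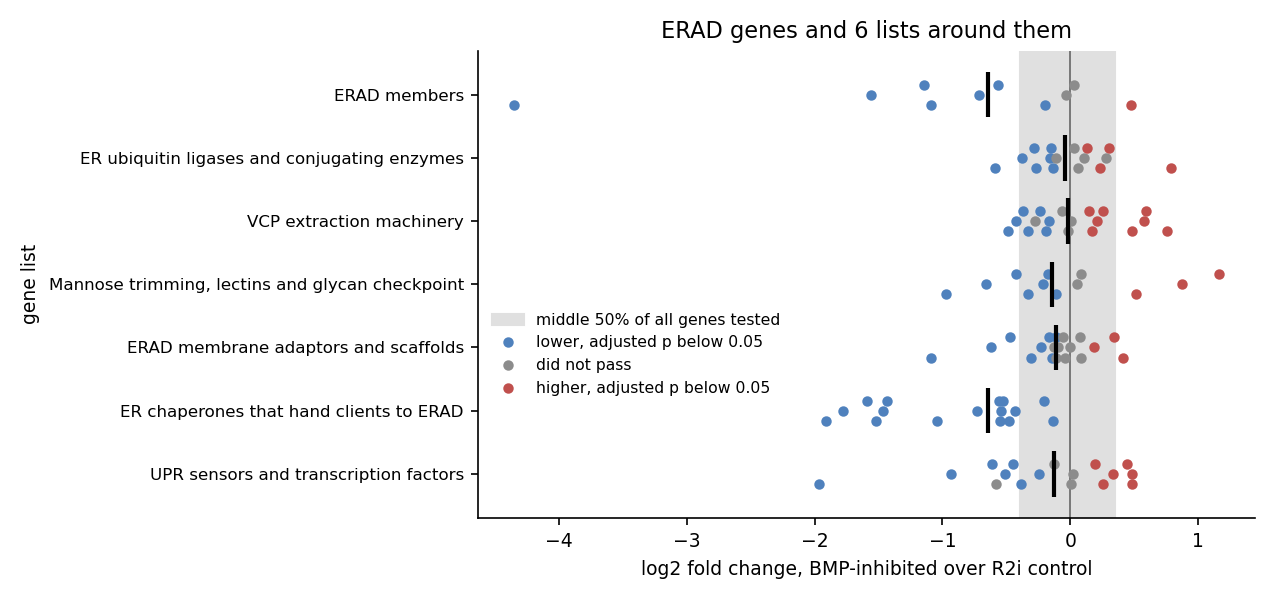
Log2 fold change (BMP-inhibited over R2i control, horizontal axis) of the 10 ERAD genes and of the tested genes of 6 lists; blue is lower, red higher and grey not passed, black bars are medians, and the grey band spans the middle 50% of all genes tested. The medians of the ERAD genes and of the ER chaperones are both -0.64, and those of the other 5 lists lie between -0.14 and -0.02.

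Position on the chromosome was not used to choose the genes either. Of the 3 tested protein-coding genes on each side of Derl3, 4 were lower, 1 higher and 1 was not called. With 64.2% of all genes called, 31.7% lower and 32.5% higher, nothing is read from this count. Smarcb1, a chromatin remodelling subunit whose gene ends 828 bases beyond Derl3 on the other strand, was at 136 ± 10.5 CPM in BMP-inhibited cells and 168 ± 5.04 CPM in controls (log2 fold change -0.30, SE 0.05, edgeR adjusted p = 0.00014). The metalloprotease gene Mmp11 and the mitochondrial gene Chchd10 followed at -1.18 and -0.87, with exons that overlap each other on opposite strands. On the other side Mif, a cytokine gene, was higher by 0.32, while the glutathione transferase genes Gstt2 and Gstt1 were at -1.46 and 0.07, the last not called. None of the 6 came near the change of Derl3.

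The genes most like Derl3 were sought among 10667 others whose average log2 CPM reached 2. Likeness was the root mean square difference over the 6 libraries of log2 CPM centred on the control mean. The closest was Aldh1l2, a mitochondrial folate enzyme, at 0.35, followed by Serpinf1 at 0.43, B4galnt2 at 0.46, Ubap1l at 0.51 and C1qtnf1 at 0.73. Aldh1l2 had 1.06 ± 0.295 CPM in BMP-inhibited cells and 24.7 ± 1.34 CPM in controls (SD, n = 3 each), and Ubap1l 3.44 ± 0.168 and 44.1 ± 0.447 CPM. By the same measure the nearest of the other 9 ERAD genes was Herpud1, at 1.98. Aldh1l2, B4galnt2 and C1qtnf1 overlap an antisense gene.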

How the data were processed

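The deposited values are the authors' whole-number read counts by gene, 1 file a library. Named in the submitters' processing notes, without roles, are the build GRCm38.p6, DESeq2, HTSeq 0.9.1, STAR 2.6.1, cutadapt 1.4.2 and CASAVA 1.8.2. Rows naming no gene held 25.6% to 26.4% of reads and were left out. Symbols, positions and exon lengths came from GENCODE release M21 (53360 of 53465 identifiers matched).

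Groups were compared with edgeR 4.0.16 (filterByExpr, minimum count 10, total 15; TMM; quasi-likelihood F test, two-sided, Benjamini-Hochberg over all genes, threshold 0.05; R 4.3.3), which was tested on simulated data. The median standard error was 0.0855 (log2). RPKM is TMM-scaled CPM per kilobase of summed exons. Of the 10 genes, 0 had a near-identical copy by BLAST 2.17.0 (90% identity over 50% of the longest transcript). Alternatives used DESeq2 1.42.0 and limma 3.58.1 among others.

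Members and lists were chosen with earlier results of these data known. From each list the up to 4 called genes with the largest change and an average log2 CPM of 2 or more are named, with the 5 genes most like Derl3, 3 neighbours on each side, and the Id genes. A gene that this rule names is not reported here. The single marker genes, Atf6, Mbtps1, Ern1, Eif2ak3, Atf4, the NF-Y genes, Alg12, Canx and the Xlr3 genes were named after their values were seen. The labels call the libraries biological replicates, and p-values set the difference between the groups against the spread among these cultures. Shared replicate numbers were checked, and no pairing of libraries was seen in the values.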

Additional observations from a re-analysis of the deposited data

How the results depend on the processing

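Under 15 alternatives (other scalings, filters, tools, thinning, the replicate block and leaving out each library) the ERAD genes counted 6 to 7 lower and 1 higher. Edem2 was the one that lost its call, without BMP-inhibited replicate 1 or control replicate 1 or 3. Derl3 ranged from -4.47 to -4.24. With the replicate block 7 were lower and 1 higher, 10210 genes were called in all against 10236, and no ERAD call changed. Same-numbered libraries correlated at -0.0443 to 0.0287, so no pairing was seen in the values. This check cannot show whether same-numbered cultures were prepared together. With the longest transcript as length Derl3 made up 14.1% of the derlin level in BMP-inhibited cells and 77.3% in controls, and kept its first and last ranks. The order of other genes changed with that length. In controls Syvn1 was followed by Sel1l, Derl1, Os9, Edem2, Edem1, Derl2 and Edem3. In BMP-inhibited cells Herpud1 was followed by Edem2, Syvn1, Os9, Sel1l, Edem1, Edem3 and Derl2. By Pearson correlation, which unlike the main measure ignores the size of a change, 0 of the 5 genes most like Derl3 were shared. Among genes whose average log2 CPM reached 4 it was 1 (Ubap1l), since the other 4 average 2.89 to 3.72 and are left out. Of the 22 genes with the ER stress element 14 to 17 were lower across alternatives, which for this count were chosen after seeing the data, and 1 was higher instead of 2 with library totals only and with the stricter count filter (1 to 2 leaving out a library). Without control replicate 3, 4 ubiquitin ligase genes were lower instead of 7, and 5 adaptor genes instead of 8 without control replicate 1 or 3. Of 51 named genes 48 counted as the same throughout, and the others were Edem2, Id3 and Pou5f1. That count ignores the sign of genes never called, such as Derl1 and Derl2, which each changed sign in 1 setting. Depth limits low genes such as Derl3 in BMP-inhibited cells, with 190 to 268 counts.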
